A study of Homo sapiens with 3 samples.

Results

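The ABC efflux pumps, organic cation carriers and their families were followed in H2373 cells, a line derived from malignant pleural mesothelioma. Members were taken from the symbols of the array annotation: every gene of the ABCA, ABCB, ABCC, ABCD and ABCG families, of the SLC22 family and of the SLC47 pair. This gave 58 genes with 96 probes, of 18851 genes with a probe, and the 58 genes comprised 38 ABC, 18 SLC22 and 2 SLC47 genes. The cells were treated for 3 h with 36 µM Hoechst 33342 (H342), treated for 3 h with 36 µM Hoechst 33258 (H258), or left untreated, and total RNA of each condition was hybridised to 1 Illumina BeadChip array. The time that the untreated cells were kept is not given in the sources used here. All 3 conditions are a single line grown in serum, and the labels name the dye as the difference between them.

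ABC transporters move lipids, sterols, drug conjugates and dyes across membranes by hydrolysing ATP, and several of the ABCB, ABCC and ABCG members empty cancer cells of drugs. SLC22 carriers take organic cations, carnitine and organic anions into cells without ATP, and the SLC47 proteins, called MATE, exchange organic cations for protons on the way out. Hoechst dyes are bisbenzimides that fluoresce in the minor groove of DNA at A/T runs, and H342 carries an ethoxy group where H258 carries a hydroxyl group on the terminal phenyl ring. H342 is a known substrate of ABCG2, whose export of the dye defines the side population in flow cytometry, and of ABCB1, the P-glycoprotein. Because H258 partly blocked the cell death caused by H342, the study proposed that both dyes share, at least in part, a transport system for entry. It did not name a carrier for that uptake, and many of the members here are exporters. The comparisons below give the transcripts of the members in untreated and in dye-treated cells.

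Each value is the mean fluorescence of the beads of a probe, in arbitrary units, with a detection p-value that sets it against the negative control beads of the same array. A gene is called detected where 1 of its probes has a detection p under 0.05, and is represented by its probe with the highest mean. There were 15248, 15115 and 16169 detected probes of 48798 under H342, under H258 and in untreated cells, and the lowest detected signals were 157, 160.0 and 156. With 1 array per condition there is no error between replicates, so no p-value, standard error or interval of a difference could be computed, and differences are descriptions of these 3 arrays. In place of an error, the robust SD of the differences between the same 2 arrays over genes of like level is given for the genes that matter most. It holds real differences as well as noise. The mesothelial markers MSLN, WT1, CALB2, KRT7, KRT8 and KRT18 were detected on all 3 arrays, KRT19 in untreated cells alone, and PDPN, KRT5 and UPK3B on none. Of 8 markers of lung epithelium, leukocytes and endothelium, PECAM1 was detected on all 3 arrays at signals of 209, 229 and 243 under H342, under H258 and in untreated cells, EPCAM under H342 alone, and the other 6 on none.

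The proximal promoters of 4 members that the results name are shown, without ABCC3: ABCA3 and ABCA1, which had higher signals under H342, and the dye pumps ABCB1 and ABCG2, which were not detected. Each runs 5′ to 3′ from 250 bases before to 50 bases after a transcription start, from RefSeq on GRCh38.p14, and all 4 genes lie on the minus strand. Capitals mark AATT, the kind of A/T run that Hoechst dyes bind, TGACNNNGC, the core of the antioxidant response element, and GCGTG, the core of the aryl hydrocarbon receptor element, each searched on both strands. They are ABCA3 at chr16:2340679-2340978, ABCA1 at chr9:104928106-104928405, ABCB1 at chr7:87600835-87601134, which is the downstream of 2 starts, and ABCG2 at chr4:88158810-88159109, which is 1 of 5 starts.
ABCA3: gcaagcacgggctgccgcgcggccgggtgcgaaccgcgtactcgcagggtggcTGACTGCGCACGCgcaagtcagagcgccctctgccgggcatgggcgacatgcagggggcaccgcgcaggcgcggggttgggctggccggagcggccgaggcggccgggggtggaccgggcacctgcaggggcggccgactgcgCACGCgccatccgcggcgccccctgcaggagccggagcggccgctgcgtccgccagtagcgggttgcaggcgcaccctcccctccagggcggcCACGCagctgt
ABCA1: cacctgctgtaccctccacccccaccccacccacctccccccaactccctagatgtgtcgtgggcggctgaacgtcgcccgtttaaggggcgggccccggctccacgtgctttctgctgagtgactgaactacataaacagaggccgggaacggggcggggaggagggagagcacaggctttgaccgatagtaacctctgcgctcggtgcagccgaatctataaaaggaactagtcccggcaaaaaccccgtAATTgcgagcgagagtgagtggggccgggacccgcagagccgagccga
ABCB1: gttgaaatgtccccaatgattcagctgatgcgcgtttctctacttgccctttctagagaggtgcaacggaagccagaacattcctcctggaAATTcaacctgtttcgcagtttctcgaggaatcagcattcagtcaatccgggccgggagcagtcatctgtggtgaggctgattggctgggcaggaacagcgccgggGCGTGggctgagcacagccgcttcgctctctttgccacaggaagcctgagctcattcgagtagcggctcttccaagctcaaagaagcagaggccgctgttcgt
ABCG2: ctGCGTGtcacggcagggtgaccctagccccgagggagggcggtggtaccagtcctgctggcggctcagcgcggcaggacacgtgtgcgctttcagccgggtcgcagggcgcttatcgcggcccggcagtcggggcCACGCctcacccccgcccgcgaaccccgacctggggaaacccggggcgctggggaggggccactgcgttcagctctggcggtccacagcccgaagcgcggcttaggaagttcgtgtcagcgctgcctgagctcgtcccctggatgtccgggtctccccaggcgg
The ABCA3 window held 0 matches to AATT, 1 to TGACNNNGC and 3 to GCGTG, and in its first run of capitals the TGACNNNGC match and a GCGTG match share 1 base. Its bases were 22.0% A or T, against a median of 37.7% over the windows of all genes with a probe. ABCA1 had 1 AATT match, beside the start, ABCB1 had 1 AATT and 1 GCGTG match, and ABCG2 had 2 GCGTG matches in this window. Of the other 4 ABCG2 windows, 1 held 2 AATT matches and 1 held a TGACNNNGC match. Over the family, 44 members had 64 such windows in the RefSeq table, of which 25 (39.1%) held AATT, close to 39.7% of 20859 windows of genes with a probe. For TGACNNNGC these shares were 17.2% of member windows and 14.1% of windows of genes with a probe, and for GCGTG 35.9% and 42.7%. The 30 windows of members detected on at least 1 array held AATT in 23.3%, TGACNNNGC in 23.3% and GCGTG in 46.7%. No share was formed over the windows of all detected genes, so these shares have no like set beside them. A match is a description of the letters and not a binding site.

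The dye efflux pumps were detected on no array. ABCG2, the breast cancer resistance protein, had signals of 107, 119.6 and 123 under H342, under H258 and in untreated cells, with detection p-values of 0.855, 0.580 and 0.468. ABCB1 had signals of 119, 124 and 135.0 on its brighter probe, with detection p-values of 0.510, 0.464 and 0.199. Its other probe had signals of 102, 131 and 115, with detection p-values of 0.939, 0.294 and 0.702. All 9 values of the 3 probes therefore lay among those of the negative control beads, and no fold change was formed for either gene. At this sensitivity a change below the detection limit could not be seen, and 1 ABCG2 probe cannot speak for all of its transcripts.

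Of the 58 members, 22 were detected under H342 (37.9%), 19 under H258 (32.8%) and 22 in untreated cells (37.9%). These shares were below those of all genes, which were 52.2%, 52.2% and 54.4%. There were 19 members detected on all 3 arrays, 5 on some arrays and 34 on none. At the stricter limit of a detection p under 0.01 the counts were 13, 14 and 10 members under H342, under H258 and in untreated cells, so many of the detected members sit near the limit of the array. ABCB8 and SLC47A2 were detected under H342 alone, ABCC2 under H342 and in untreated cells, and ABCA4 and SLC22A17 in untreated cells alone. ABCA4, the retinoid transporter of photoreceptors, shows how narrow such a call can be: its signals were 156, 159.6 and 157, with detection p-values of 0.0501 under H342, 0.0501 under H258 and 0.0487 in untreated cells.

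The 34 members detected on no array had signals between 94.5 and 149.7 and detection p-values between 0.0751 and 0.992. Besides ABCG2 and ABCB1 they were, among the bile pumps and their relatives, ABCB4, which exports phospholipid into bile, ABCB11, the bile salt export pump, and ABCB5. ABCC13 and the sulfonylurea receptors ABCC8 and ABCC9, regulatory subunits of potassium channels, were also undetected, as were the lipid transporters ABCA5, ABCA6, ABCA7, ABCA8, ABCA9, ABCA10, ABCA12 and ABCA13, the sterol transporters ABCG4 and ABCG8, and the peroxisomal and lysosomal transporters ABCD2 and ABCD4. None of the 10 organic anion and urate carriers was detected: SLC22A6, SLC22A7, SLC22A8, SLC22A9, SLC22A10, SLC22A11, SLC22A12, SLC22A13, SLC22A24 and SLC22A25, several of which serve urate and drug excretion in the kidney. The cation carriers SLC22A2, SLC22A15 and SLC22A16 and the orphan SLC22A14 completed the undetected set. Some members lie side by side among the protein-coding genes of the RefSeq table for GRCh38.p14 and had like calls: the 5 neighbouring genes ABCA8, ABCA9, ABCA6, ABCA10 and ABCA5 on chromosome 17 and the 6 neighbouring SLC22 genes on chromosome 11 were all undetected, and SLC22A4 and SLC22A5 on chromosome 5 and ABCC12 and ABCC11 on chromosome 16 were all detected. ABCG5 and ABCG8 on chromosome 2, whose proteins work as a pair, differed, with ABCG5 detected and ABCG8 not.

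**Figure D1:**
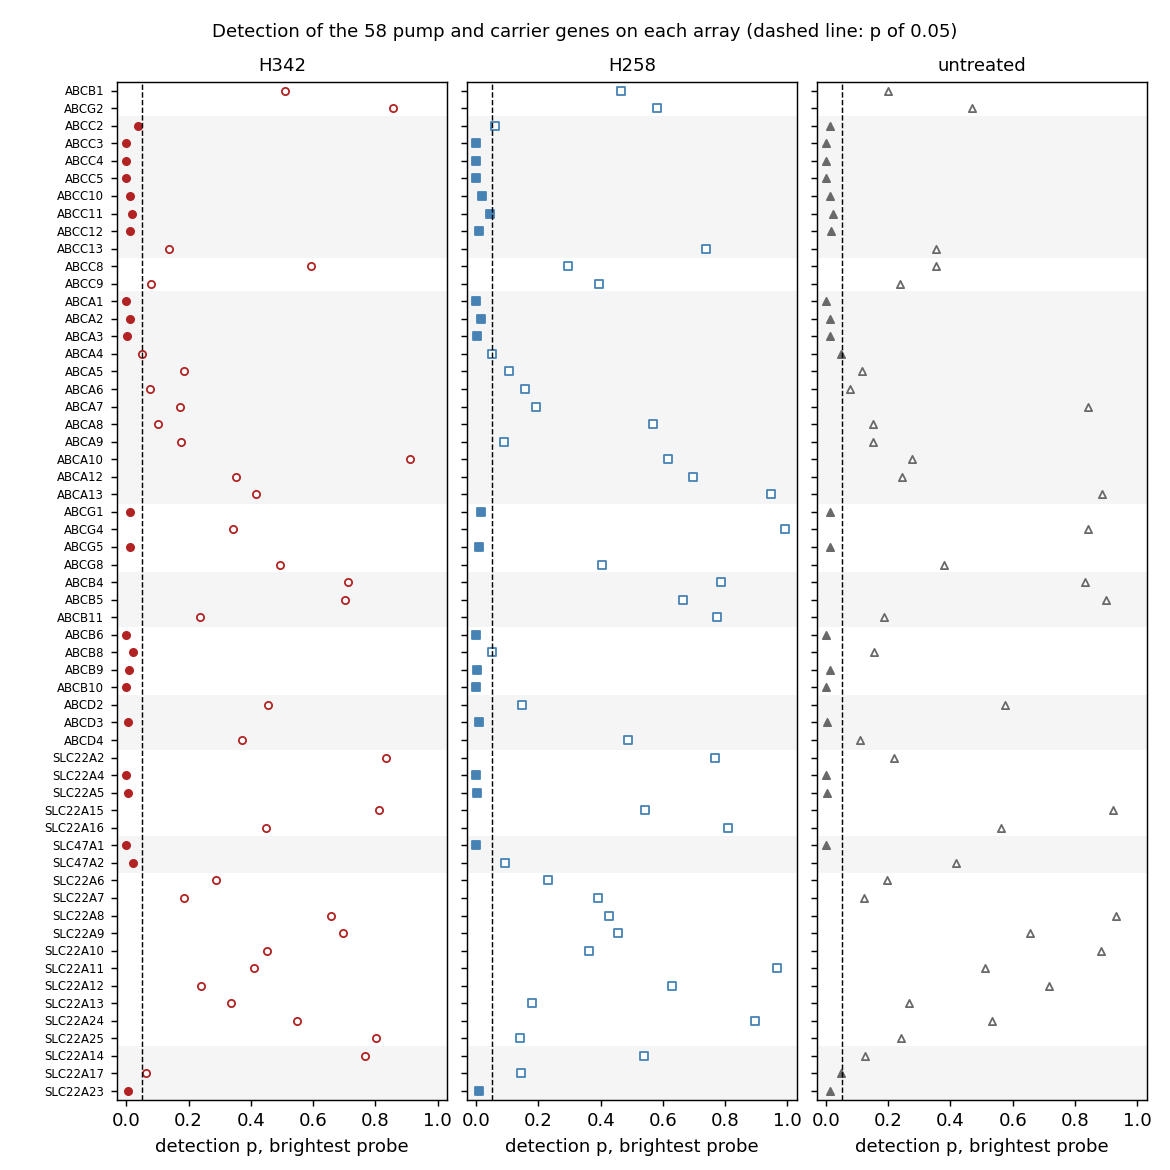
Detection p-value (x axis) of the brightest probe of each of the 58 members (rows, grouped by role) on the H342, H258 and untreated arrays, with filled symbols under 0.05. The dye pumps ABCB1 and ABCG2, in the top rows, are open on all 3 arrays, and 34 members are open throughout.

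Differences were taken on the log2 scale after background correction and normalization between the arrays, for genes with a detection on either array, and a gene was called where it differed by at least 2-fold. Under H342, 2 of 24 tested members were called higher than in untreated cells, ABCC3 and ABCA3, and 0 were called lower. Of 10581 tested genes, 1.25% were called higher and 3.61% lower. The members' median difference was 0.23, against 0.03 over all tested genes, whose robust SD was 0.39. There were 17 members above 0 and 7 below. Of the 24 members, ABCB8 and SLC47A2 entered only through detection under H342, and ABCA4 and SLC22A17 only through detection in untreated cells. Under H258, 0 of 22 tested members were called in either direction, beside 0.768% of 10550 genes higher and 3.35% lower. Their median was 0.24, against 0.06 over all tested genes with a robust SD of 0.42, and 16 members lay above 0 and 6 below. The medians of all tested genes were above 0 too. No share of all tested genes above 0 was formed, so the members' counts above and below 0 have no like share beside them. The count of calls under H342 rests on 2 genes, of which ABCC3 alone was left under 5 of the other ways of processing the arrays. In RNA of whole cultures, fewer cells with a transcript and less of it per cell cannot be told apart. Both comparisons use the same untreated array, so a value that is off on that array moves both.

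The multidrug resistance proteins of the ABCC family export glutathione, glucuronide and sulphate conjugates and some unconjugated drugs. Of the 8 genes of this list with a probe, 7 were detected, and the other, ABCC13, is a transcribed pseudogene. ABCC3, which exports glucuronides and bile salts across the basolateral membrane, had signals of 3396 under H342, 1809.9 under H258 and 1447 in untreated cells. H342 thus gave the highest of its 3 signals, and the array under H258 lay between the others. The log2 difference was 1.42 under H342, a fold of 2.68, with a robust SD of 0.29 over genes of like level, and 26 of the 10581 tested genes had a greater one. Under H258 it was 0.37, with a like-level robust SD of 0.35. ABCC4, which exports cyclic nucleotides and nucleoside analogues, had signals of 1373, 1268 and 1574 under H342, under H258 and in untreated cells. Its other probe gave 1156, 1177 and 1639, so both probes were brightest in untreated cells. The differences of the first probe were -0.13 and -0.32 under H342 and H258 and those of the second -0.46 and -0.50, below 2-fold in each case.

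ABCC5, a further exporter of cyclic nucleotides, had signals of 563, 479 and 431 under H342, under H258 and in untreated cells, with differences of 0.60 and 0.26 under H342 and H258. Its other detected probe gave 0.49 and 0.16. ABCC2, the canalicular exporter of conjugates, had signals of 160.0, 155 and 199 and was dimmest under H258, where it was not detected. Its difference was -0.61 under H342. With the lowest detected level of the H258 array in place of the undetected value, it was at least 1.22-fold lower under H258 without background correction and at least 1.58-fold lower with it, and such bounds are given on both scales from here on. ABCC10, which exports taxanes, had signals of 213, 196 and 201 and differences of 0.30 and 0.01. ABCC11 had signals of 189, 164 and 181 with differences of 0.25 and -0.26, and its relative ABCC12 had signals of 198, 236 and 189.7 with differences of 0.26 and 0.75. These 3 genes lie close to the detection limit, where the robust SD of like-level genes was between 0.52 and 0.56 in both comparisons. Over the list, 1 of 7 was called higher and 0 lower under H342 and 0 in either direction under H258, with medians of 0.26 and 0.01.

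**Figure D2:**
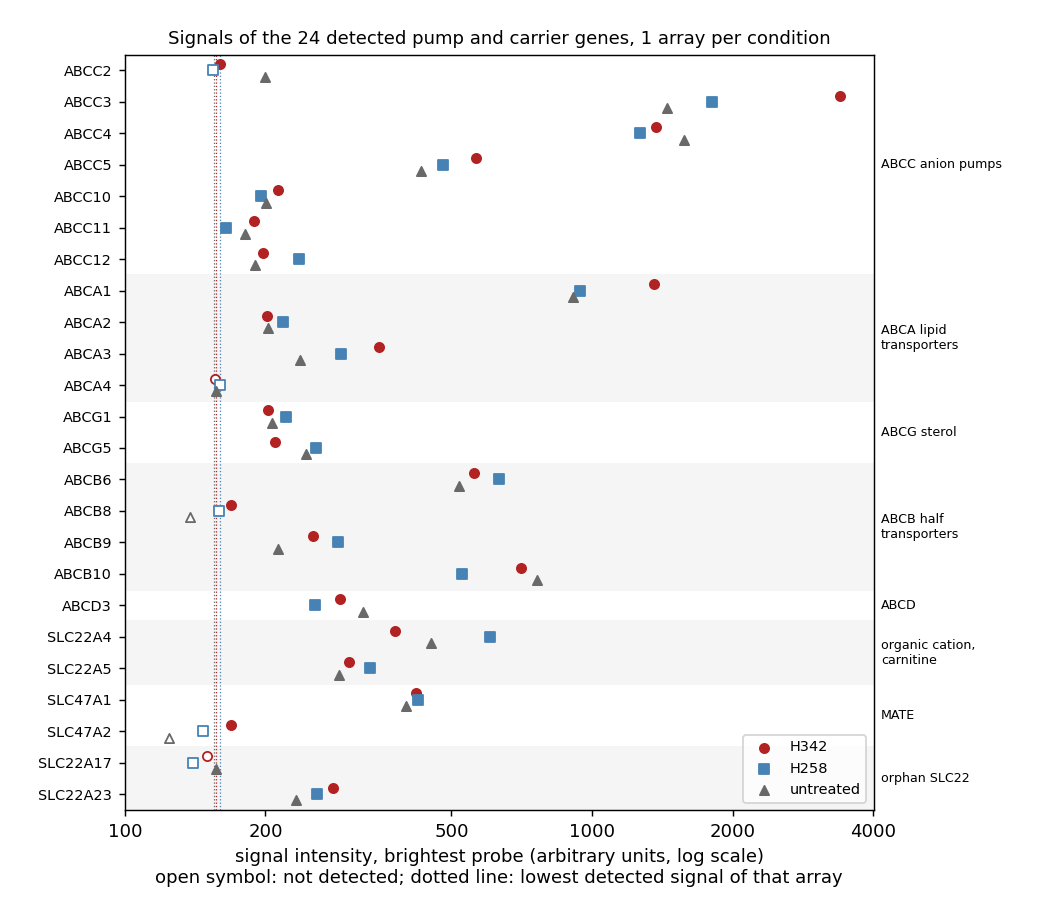
Signal of the brightest probe (x axis, arbitrary units on a log scale) of the 24 members detected on at least 1 array, for H342 (circles), H258 (squares) and untreated cells (triangles), with 1 array each. The ABCC3 symbols lie at 3396 under H342, 1809.9 under H258 and 1447 in untreated cells, and those of SLC47A1 nearly coincide at 419.8, 423 and 400.1.

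The ABCA family moves lipids, and 4 of the 12 members with a probe were detected. ABCA3, which loads surfactant lipids into lamellar bodies, had signals of 350.3 under H342, 291 under H258 and 237 in untreated cells. Both dye arrays lay above the untreated one, with differences of 1.04 under H342, a fold of 2.06, and 0.61 under H258. The robust SD over genes of like level was 0.44 and 0.49, and 107 genes had a greater difference under H342. The 2-fold call was lost in the deposited value table, at 0.64, and without background correction, at 0.63. It was also lost with an offset of 50, at 0.87, without normalization between arrays, at 0.94, and with cyclic loess, at 0.97. ABCA1, which hands cholesterol and phospholipid to apolipoproteins, had signals of 1355, 943 and 912 under H342, under H258 and in untreated cells. Its difference of 0.75 under H342 stood below the 2-fold limit with a like-level robust SD of 0.34, and 417 genes were higher, whereas H258 gave 0.12. ABCA2, a lipid transporter of myelinating cells, had signals of 202, 218 and 202, with differences of 0.11 and 0.31. Over the list, 1 of 4 was called higher under H342 and 0 of 4 under H258, 0 were called lower, and the medians were 0.43 and 0.22.

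Among the sterol transporters of the ABCG family, ABCG1, which passes cholesterol to lipoproteins, had signals of 202, 221 and 207 under H342, under H258 and in untreated cells, and differences of 0.05 and 0.29 on its brightest probe. Of its 6 probes 3 had a detection, and their mean gave -0.03 under H342 and 0.03 under H258, so the direction under H342 turns with the choice of probe, as it did without normalization between the arrays, at -0.03. ABCG5, the partner of ABCG8 in sterol excretion, had signals of 210.2, 257 and 245 and differences of -0.29 and 0.22. Neither gene was called, and the family gave 2 detected of 4 members.

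The ABCB transporters of mitochondria and lysosomes were all detected on at least 1 array, 4 of 4 with a probe, and 0 were called. ABCB10, which works in haem synthesis in the inner mitochondrial membrane, had signals of 706, 527 and 764 under H342, under H258 and in untreated cells. It was lowest under H258, with differences of -0.01 under H342 and -0.58 under H258. ABCB6, a porphyrin transporter, had signals of 560.1, 632 and 519 and differences of 0.24 and 0.42. ABCB9, a lysosomal peptide transporter, had signals of 253, 286 and 213, and its difference of 0.86 under H258 was the highest of any member under that dye, against 0.61 under H342. The like-level robust SD there was 0.50. A second ABCB9 probe, detected under H342 alone, had signals of 171, 147 and 149, and the mean of both probes gave 0.43 under H258 and 0.58 under H342, so the H258 value rests on 1 probe. ABCB8, a mitochondrial transporter, had signals of 169, 159 and 138 and was detected under H342 alone. There it was higher than in untreated cells by at least 1.12-fold without background correction and 1.29-fold with it. On the log2 scale the bound with background correction was 0.37, below the like-level robust SD of 0.56. Its other probe, detected on no array, had signals of 108, 130 and 120, lowest under H342. The medians of the list were 0.43 under H342, over 4 genes, and 0.42 under H258, over 3 genes. They cover different genes and cannot be set side by side, because ABCB8 entered under H342 only through its detection on that array. ABCD3, a peroxisomal importer of fatty acids, was the 1 detected ABCD member, with signals of 289, 255 and 324 and differences of -0.13 and -0.48.

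The organic cation and carnitine carriers had 2 detected members of 5 with a probe. SLC22A4, a carrier of ergothioneine and organic cations, had signals of 378 under H342, 605 under H258 and 451 in untreated cells. The H342 array was thus the lowest and the H258 array the highest, with differences of -0.26 and 0.61. Its second probe kept this order, with signals of 248, 314 and 286 and differences of -0.22 and 0.31. SLC22A5, the carnitine carrier encoded beside it, had signals of 303, 334 and 288 and differences of 0.22 and 0.43. Neither was called. SLC22A2, the cation uptake carrier of kidney, was not detected.

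The MATE extruders were both detected under H342. SLC47A1 had signals of 419.8 under H342, 423 under H258 and 400.1 in untreated cells, so the 3 arrays were close, with differences of 0.19 and 0.18. SLC47A2, known as a kidney form, had signals of 168, 147 and 125, with detection p-values of 0.0224, 0.0922 and 0.418. It crossed the detection limit under H342 alone, and was higher there than in untreated cells by at least 1.12-fold without background correction and 1.29-fold with it. On the log2 scale the bound with background correction was 0.36, below the like-level robust SD of 0.57. Of the orphan carriers, SLC22A23 had signals of 278, 258.4 and 232 with differences of 0.60 and 0.38. SLC22A17, a receptor for lipocalin, had signals of 150.0, 139.8 and 157 and was detected in untreated cells alone, close to the limit, so no bound of a fold could be given.

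**Figure D3:**
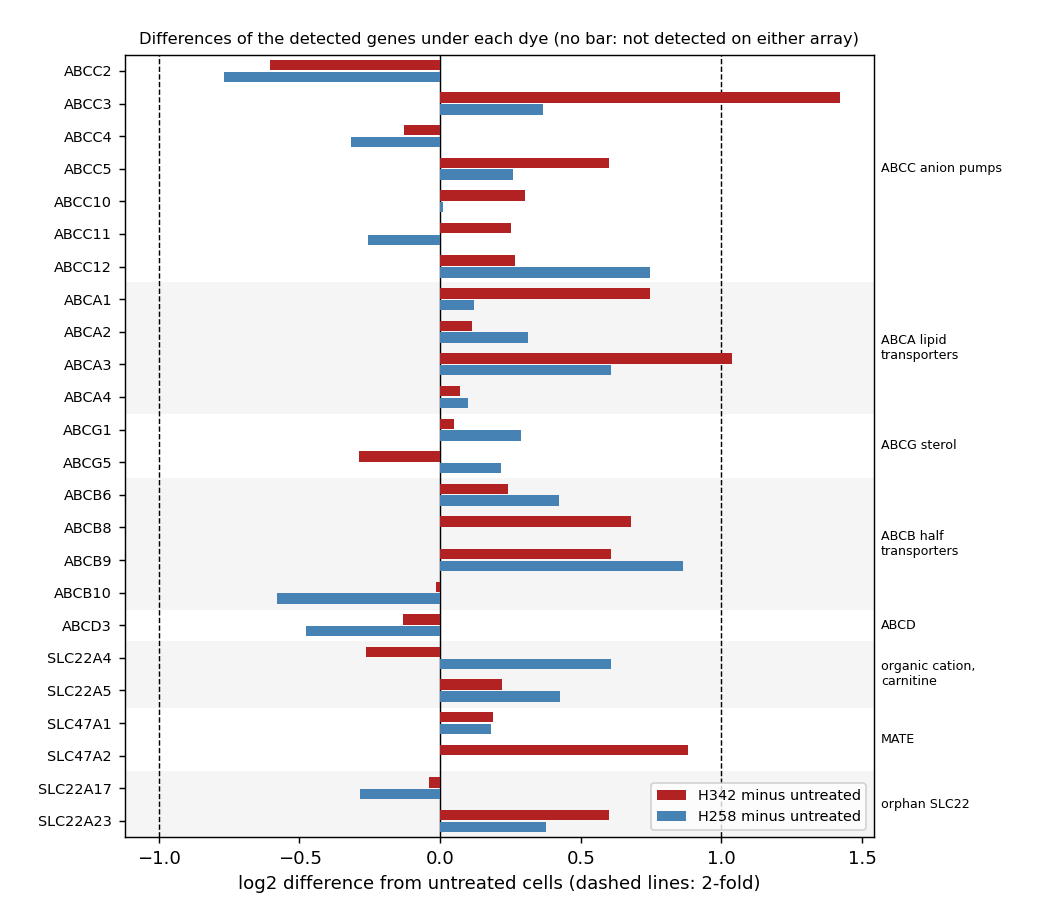
Log2 difference from untreated cells (x axis) of the 24 members tested under H342 (red) and the 22 tested under H258 (blue), with dashed lines at 2-fold. ABCC3 at 1.42 and ABCA3 at 1.04 under H342 pass the line, and no bar under H258 does, while the bars of ABCA4, ABCB8, SLC47A2 and SLC22A17, and that of ABCC2 under H258, use a value that was not detected on 1 side.

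H342 and H258 were compared directly at the same dose and time, a single pair of compounds, with no test possible on 1 array each. Of 22 tested members, ABCC3 was called higher under H342 and 0 were called lower, beside 3.74% of 10296 genes higher and 3.69% lower. The members' median was 0.20, against -0.01 over all tested genes with a robust SD of 0.41. There were 14 members above 0 and 8 below, and no share of all tested genes above 0 was formed. Among those above 0, ABCB8, SLC47A2 and ABCC2 entered only through detection under H342, a filter that favours values above 0. For the 19 members detected on both arrays the median was 0.19, against -0.01 over all genes detected on both. ABCC3, at 3396 under H342 and 1809.9 under H258, differed by 1.05, a fold of 2.08 with a like-level robust SD of 0.32, and 330 genes had a greater difference. It lay at the limit: the difference was 0.95 without normalization between the arrays, 0.97 with median scaling and 0.97 in the deposited value table. Next came ABCA1 at 0.63, with signals of 1355 and 943, and ABCB10 at 0.56, with 706 and 527.

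SLC22A4 was the lowest member in the direct comparison, at 378 under H342 and 605 under H258, a difference of -0.87 with a like-level robust SD of 0.44, and 507 genes were lower. Its second probe gave -0.53. ABCG5 at -0.51 and ABCC12 at -0.48 followed. SLC47A1, at 419.8 and 423, differed by 0.01. SLC47A2 and ABCB8, not detected under H258, were each higher under H342 by at least 1.07-fold without background correction and 1.17-fold with it. On the log2 scale both bounds with background correction were 0.23, below like-level robust SDs of 0.63 and 0.62. Most members thus differed between the dyes by less than 2-fold, and without replicates no interval can be given for these differences, so they do not show that the dyes act alike.

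**Figure D4:**
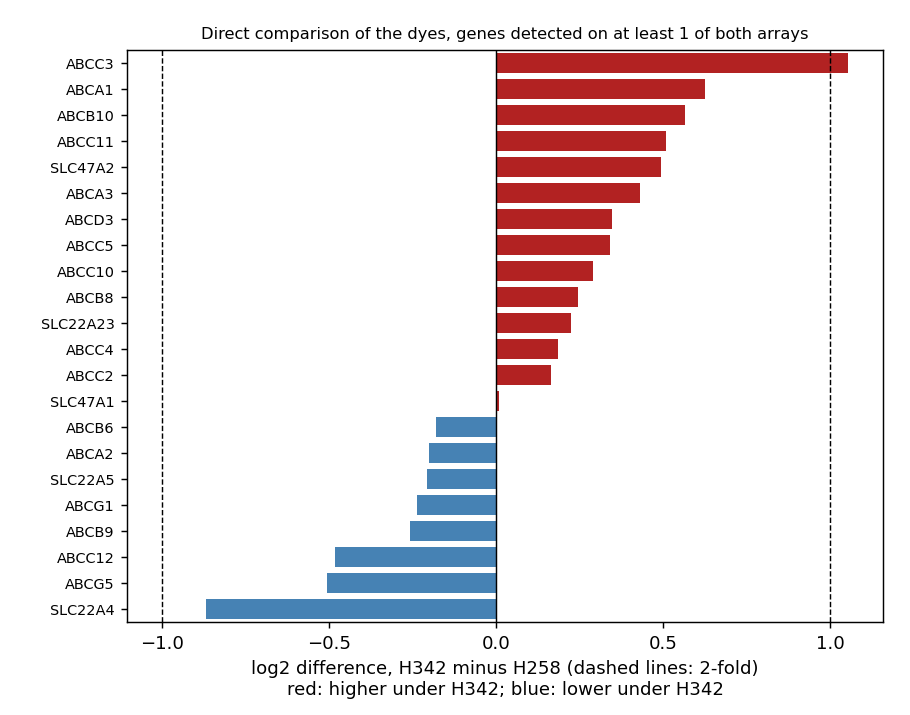
Log2 difference of H342 minus H258 (x axis) for the 22 members detected on at least 1 of these arrays, ordered from highest to lowest, with dashed lines at 2-fold. ABCC3 at 1.05 and SLC22A4 at -0.87 are the ends of the range.

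Across the 19 members detected on all 3 arrays, the order of the arrays was H342 above H258 above untreated for 7 genes, ABCC3, ABCA3, ABCA1, ABCC5, ABCC10, SLC22A23 and SLC47A1. A further 6, ABCA2, ABCB6, ABCB9, ABCC12, ABCG1 and SLC22A5, were highest under H258 and lowest in untreated cells. With the mean of detected probes, ABCB9 turned to higher under H342 than under H258, by 0.15, and ABCG1 to lower under H342 than in untreated cells, at -0.03. ABCC4, ABCB10 and ABCD3 were highest in untreated cells and lowest under H258, ABCG5 and SLC22A4 were highest under H258 and lowest under H342, and ABCC11 was highest under H342 and lowest under H258. Many of these orders rest on gaps below the like-level robust SD. As a check on a single value, 2 probes of a gene that were both detected differed in their log2 difference by a median of 0.20, 0.22 and 0.23 over all such genes in the comparisons of H342 with untreated, H258 with untreated and H342 with H258. These medians use the 2 brightest such probes of a gene. For the members ABCC4, ABCC5 and SLC22A4 the gaps were 0.33, 0.11 and 0.04 in the first comparison, and SLC22A4 had 0.34 in the direct one. ABCG1 had 3 such probes in the first comparison, at 0.05, 0.02 and -0.16. Their widest gap was 0.21, and the third disagreed in sign with the brighter ones. ABCC3, ABCA3 and ABCA1 have 1 probe each, so their differences have no second probe beside them.

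**Figure D5:**
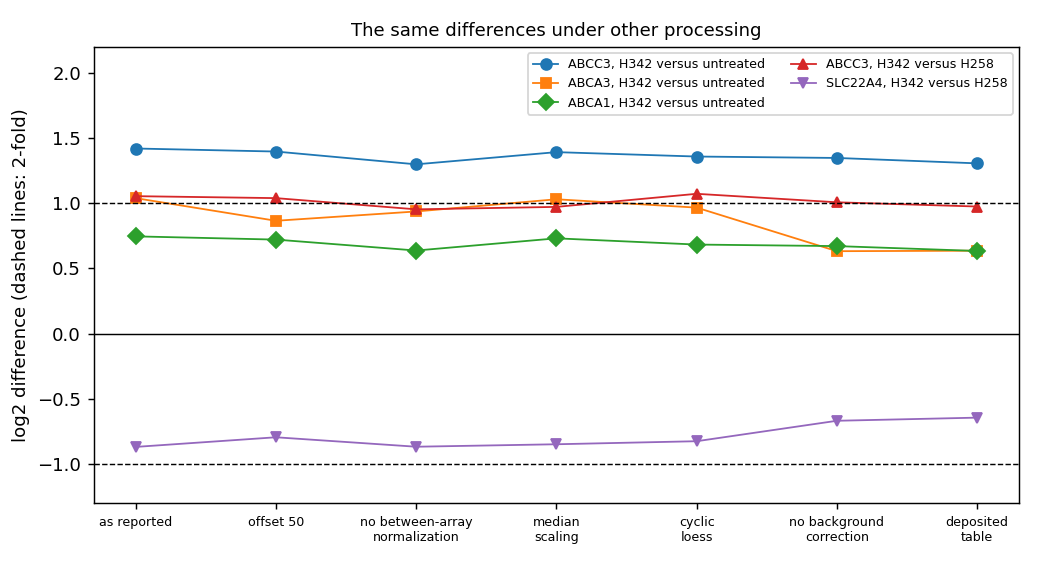
Log2 difference (y axis) of 4 members in the comparison named in the legend, as reported and under 6 other ways of processing the same arrays (x axis), with dashed lines at 2-fold. ABCC3 under H342 against untreated cells stays above the line in each, and ABCC3 against H258 runs along the line. ABCA3 is above the line only as reported and with median scaling. It is lowest, at 0.63 and 0.64, without background correction and in the deposited table.

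Related genes gave no further calls. Of the 7 other ABC proteins, which include the peptide transporters of antigen presentation and the ABCE and ABCF proteins of translation, 6 were detected and 0 were called, with medians of 0.07 under H342 and 0.16 under H258. ABCE1, a ribosome recycling factor, had signals of 1717, 1358 and 2361 under H342, under H258 and in untreated cells, with differences of -0.40 and -0.84, and TAP1 was the highest of the list under H342, at 0.44. Of 26 other drug, nucleoside and vitamin carriers, 12 were detected and 0 called. The medians were 0.18 under H342, over 10 tested genes, and 0.09 under H258, over 12. These medians cover different genes and cannot be set side by side, because SLC29A1 and SLC19A2 were detected under H258 alone. The highest under both dyes was SLC29A4, the monoamine transporter that also carries organic cations, with signals of 375, 392 and 288 and differences of 0.67 and 0.75.

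Of 14 transcriptional regulators of efflux pump genes with a probe, 11 were detected and 0 called, with medians of -0.05 under H342 and 0.14 under H258. NFE2L2, the factor that acts at antioxidant response elements and drives several ABCC genes, had signals of 2460.5 under H342, 2628 under H258 and 4739 in untreated cells. Both dye arrays lay below the untreated one, with differences of -0.89 and -0.88, and the difference between the dyes was -0.01. KEAP1, its inhibitor, had signals of 1474, 2445 and 2018, and its difference of -0.70 between H342 and H258 was the lowest of the list. NR1H3, a sterol receptor that drives ABCA1 and ABCG1, had signals of 212, 235 and 202, with differences of 0.27 and 0.53. AHR, the aryl hydrocarbon receptor, had signals of 3249, 2927 and 3350.0 and differences of 0.07 and -0.19.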

How the data were processed

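Total RNA from H2373 cells was amplified, labelled with biotin and hybridised to Illumina HumanHT-12 BeadChips, 1 array for each of the 3 conditions, which were read from the sample labels. The text and the array files name different versions of the chip. The signal intensities deposited by the authors are bead averages from BeadStudio 3.1.3.0, without background subtraction, and the detection p-value deposited by the authors beside each intensity comes from the negative control beads. A second table of intensities deposited by the authors has matched distributions across the arrays. How they were matched is not given in the sources used here, and the table served as an alternative.

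In R 4.3.3 with limma 3.58.1, signals were background-corrected (normal-exponential fit, control beads recovered from the detection p-values, offset 16), quantile-normalized and put on the log2 scale. Python 3.11.15 with numpy 2.4.6, pandas 2.3.3 and matplotlib 3.10.9 was used for the rest. Of 48798 probes, 28093 had 1 symbol, 13 several and 20692 none, and probes with several or no symbols were left out. RefSeq's gene table held all 58 member symbols. A gene entered a comparison if either array detected it (p under 0.05) and was called at 2-fold. A side not detected was set to the lowest detected level of its array for a bound, with and without background correction. Such a bound takes no account of noise in the detected value. Genes of like level lay within 0.5 on the log2 scale. The number of arrays, not a read depth, limits precision. The steps were tested on simulated data. A pass was required for bright probes only, so the test gives no assurance for dim members such as ABCA3.

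Named genes are the dye pumps, the MATE extruders, every called member, and in each list the brightest detected member and those with the extreme differences. Members, lists and thresholds were chosen with earlier results of these data known. NR1H3, AHR and the remaining detected members, for completeness, were named after their values were seen. Alternatives changed the offset to 50, the background correction, the normalization, the source table, the detection filter, the fold or the way probes were combined, or set undetected sides to the detection limit.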

Additional observations from a re-analysis of the deposited data

How the results depend on the processing

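No paired analysis was possible because each condition had 1 array, and for the same reason no replicate could be left out. Under H342 against untreated cells, 2 members were called higher as reported, and 1, ABCC3, without background correction, with an offset of 50, without normalization between arrays, with cyclic loess and in the deposited value table. At 1.5-fold 8 of 24 were called higher and 1 lower, beside 7.95% and 9.86% of 10581 genes. The 8 include ABCB8 and SLC47A2, which were not detected in untreated cells. At 3-fold 0 were higher, beside 0.14% of genes. The median of the members, 0.23 as reported, was 0.13 without background correction, 0.13 in the deposited value table and 0.052 with no detection filter, where all 58 members enter. Over all genes the medians under these settings were 0.02, 0.02 and 0.012. ABCA3 was 0.63 without background correction, 0.64 in the deposited table, 0.87 with an offset of 50, 0.94 without normalization between arrays and 0.97 with cyclic loess. Under H258, 0 members were called in either direction except at 1.5-fold. There 4 of 22 were higher and 1 lower, beside 7.22% and 11.6% of 10550 genes. The members' median under H258, 0.24 as reported, was 0.13 without background correction, 0.14 in the deposited table and 0.044 with no detection filter. Over all genes the medians under these settings were 0.05, 0.05 and 0.028. For H342 against H258, 1 member was called higher as reported. The count was 0 without normalization between arrays, with median scaling, in the deposited table and at 3-fold, where 0.42% of genes were higher. At 1.5-fold 2 of 22 were higher and 1 lower, beside 11.5% and 10.3% of 10296 genes. The members' median in this comparison was 0.014 with no detection filter, against -0.010 over all genes. At a detection p under 0.01, 13 members were detected under H342 and 10 in untreated cells, against 22 and 22 as reported. No direction of a called difference reversed in the alternatives run. Over all genes, 132 higher and 382 lower calls under H342 became 23 and 140 in the deposited table, and 81 and 353 under H258 became 3 and 85. Why these values moved was not tested. The bounds without background correction were added after seeing the data.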
